A study of Mus musculus with 12 samples.

Results

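The genes described here are 10 members of the matrix protease system, chosen by symbol: the matrix metalloproteases Mmp2, Mmp7, Mmp14 and Mmp15, the tissue inhibitors of metalloproteases Timp1, Timp2 and Timp3, the secreted protease Adamts1, and the membrane-bound sheddases Adam9 and Adam10. All 10 were found among the 53599 genes of the count table, and all 10 passed the filter on low counts that left 16210 genes for testing. The series holds 12 bulk RNA-seq libraries of cells sorted from mouse liver, in 4 groups with 3 replicates per group. All mice were injected with AAV8-TBG-Cre; the hepatocyte-selective TBG promoter drives Cre recombinase from this adeno-associated virus, so that hepatocytes and their descendants carry EGFP. Starting 1 week later all were given 0.1% DDC, a porphyrinogenic compound that injures bile ducts, for 8 weeks. The early group was EGFP+ Cd24- Epcam-, the intermediate group EGFP+ Cd24+ Epcam-, and the full group EGFP+ Cd24+ Epcam+. The fourth group, biliary epithelial cells (BEC), was EGFP- Epcam+, a gate set by the absence of the label, with Cd24 not part of it. Below, a step is a comparison of neighbouring groups in the order early, intermediate, full and BEC. BEC against full compares cells without and with the label, so it is not a change between successive stages. The labels give the genotype of all groups as WT; the reporter allele, the age and the sex of the mice are not given in the sources used here. No group comes from mice without DDC, so every level is that of an injured liver. Whether replicates came from separate animals is not stated either, and p-values measure only the spread between these libraries.

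Matrix metalloproteases are zinc enzymes made as inactive precursors that cut collagens, basement membrane and surface proteins. TIMP proteins bind their active sites and block them. MMP14, which spans the membrane, together with TIMP2 forms the complex that activates the precursor of MMP2, and ADAM10 is a sheddase that cuts ligand-bound Notch receptors at the cell surface. In the injured liver, hepatic stellate cells are a major source of MMP2 and TIMP1, while MMP7, or matrilysin, is a product of ductal and glandular epithelia.

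GENCODE M21 (GRCm38) places Mmp7 at chr9:7692090-7699585, Mmp14 at chr14:54431612-54445364, Mmp2 at chr8:92827291-92853420 and Mmp15 at chr8:95352268-95375080. The inhibitors lie at chrX:20870166-20874735 (Timp1), chr11:118301069-118355740 (Timp2) and chr10:86300372-86349506 (Timp3). Adamts1 lies at chr16:85793827-85803113, Adam9 at chr8:24949611-25016927 and Adam10 at chr9:70678997-70780229. All 10 are annotated as protein-coding.

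Total counts ran from 15112893 to 19731887 per library. The mitochondrial share was between 5.45% and 11.4% in early libraries and between 2.20% and 4.75% in the others. TMM scaling factors were 0.652 to 0.672 in early and 1.03 to 1.22 elsewhere; the 50 most abundant genes held 31.2% to 35.9% of the counts in early and 14.9% to 21.6% in the rest. Levels are given as CPM, each library's counts scaled to a common total with its TMM factor applied. Of the identity markers outside the sort gates, Alb had its highest mean in early, and Krt19 and Sox9 their lowest. Cd24 and Epcam are gates of the sort, so the order of Cd24a and Epcam was partly set in advance. Alb averaged 73507 CPM in early, 12631 in intermediate, 2582 in full and 1653 in BEC. Krt19 averaged 0.111, 2.21, 118 and 593 CPM, Sox9 43.4, 311, 378 and 388 CPM, Cd24a 3.20, 444, 1074 and 1073 CPM, and Epcam 0.592, 18.8, 254 and 866 CPM in the same order.

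Mmp7 set the full and BEC groups apart from the 2 earlier ones. Its counts were 0 in all 3 early libraries and 6, 1 and 0 in intermediate replicates 1 to 3. Full replicates had 91.3, 53.4 and 41.9 CPM, and BEC replicates had 771, 617 and 569 CPM. No full library overlapped with intermediate, and no BEC library overlapped with full. The level averaged 62.2 ± 25.9 CPM in full and 652 ± 106 CPM in BEC (SD, n = 3 each). Against a floor of 3 counts per library, at most 0.273 CPM in early, Mmp7 was at least 228-fold higher in full and at least 2391-fold higher in BEC than in early. Full exceeded intermediate by a log2 fold change of 8.77 (SE 0.52, edgeR adjusted p 2.34e-07). Since intermediate holds only 7 reads, that size is imprecise: it ran from 8.19 without intermediate replicate 3 to 10.81 without intermediate replicate 1. BEC exceeded full by 3.39 (SE 0.29, edgeR adjusted p 8.22e-06), which is 10.5-fold. Intermediate and early could not be told apart by the main test (edgeR adjusted p 0.223); on those 7 reads, DESeq2 gave an adjusted p of 0.0431 and edgeR without a filter 0.0273. In bulk libraries, fewer cells that express a gene and less RNA per cell cannot be told apart. Full and BEC were both sorted as Epcam+, and the part of EGFP- cells in the full level was not tested.

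The 250 bases before the start of Mmp7 are shown beside those of Adamts1 and Mmp14, the pair of proteases most alike in pattern over the 12 libraries (Pearson's r = 0.896), so that a gene at or near 0 in early and intermediate can be set beside 2 that were not. Sequences and coordinates are those of RefSeq on GRCm38.p6 (the counts were made on GRCm39, per the submitters' processing notes), 5′ to 3′ on the strand of the gene. Capitals mark matches, on either strand, to the AP-1 motif TGANTCA, the TATA box TATAAA, the TEAD core GGAATG or the GC box GGGCGG.
Mmp7, chr9:7691840-7692089, plus strand: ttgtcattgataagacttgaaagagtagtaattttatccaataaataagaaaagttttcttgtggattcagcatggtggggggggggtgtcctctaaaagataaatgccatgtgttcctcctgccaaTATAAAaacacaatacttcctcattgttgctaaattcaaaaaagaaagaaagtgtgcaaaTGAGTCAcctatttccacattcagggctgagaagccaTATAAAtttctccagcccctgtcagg
Adamts1, chr16:85803114-85803363, minus strand: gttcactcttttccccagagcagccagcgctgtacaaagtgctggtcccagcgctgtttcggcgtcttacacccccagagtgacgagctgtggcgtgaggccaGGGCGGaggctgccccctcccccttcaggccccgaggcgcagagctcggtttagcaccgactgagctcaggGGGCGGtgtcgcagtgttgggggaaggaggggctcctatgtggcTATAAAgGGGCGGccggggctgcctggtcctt
Mmp14, chr14:54431348-54431597, plus strand: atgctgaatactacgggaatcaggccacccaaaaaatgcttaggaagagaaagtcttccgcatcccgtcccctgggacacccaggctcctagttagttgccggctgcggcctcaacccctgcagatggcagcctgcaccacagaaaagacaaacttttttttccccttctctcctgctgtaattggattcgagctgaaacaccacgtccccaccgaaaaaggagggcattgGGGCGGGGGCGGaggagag
The Mmp7 window held 1 AP-1 match, whose first base lies 63 bases before the start, and 2 TATA matches at 123 and 26 bases before it. Adamts1 had 1 TATA match at 32 bases before the start and 3 GC boxes, and Mmp14 had 2 GC boxes and no TATA match. Of 32851 RefSeq upstream windows of 250 bases, 6.75% held the AP-1 motif, 12.4% the TATA box, 12.6% the TEAD core and 32.7% the GC box. GC content was 38% for Mmp7, 65.6% for Adamts1 and 55.2% for Mmp14. Of the 10 members, 8 had a window in the table, and Mmp7 was the only 1 of those 8 with an AP-1 match. Mmp7 has 2 entries, and the window of the second, whose first base lies inside the gene, held no match to any of the 4 motifs. A match of letters is a description and shows no binding.

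**Figure D1:**
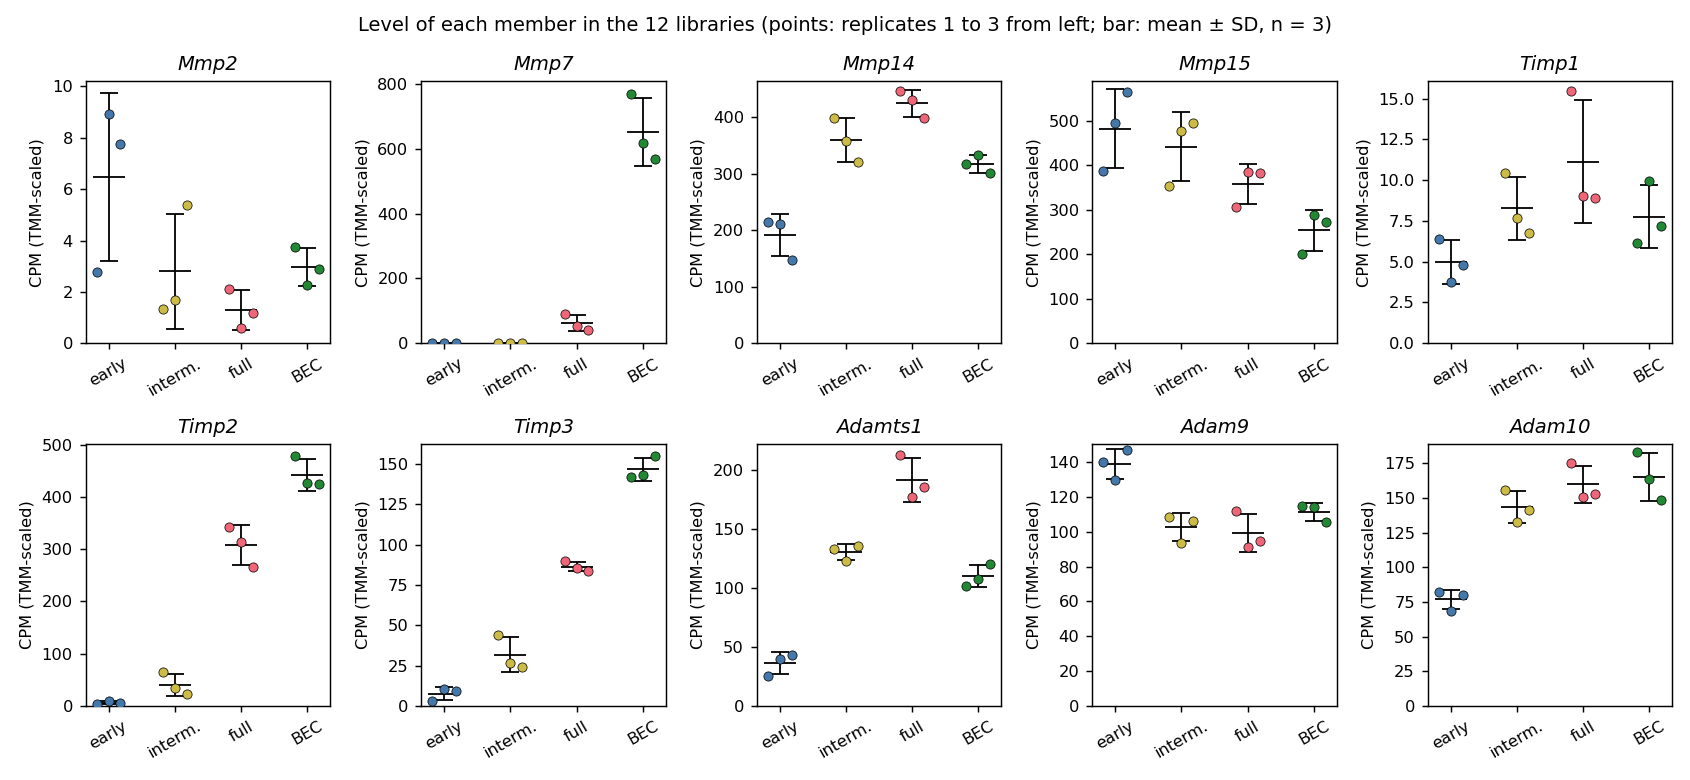
Level in CPM (TMM-scaled, linear axes from 0) of each of the 10 members in early, intermediate, full and BEC libraries; points are replicates 1 to 3 from left to right, and the bar is the mean ± SD (n = 3). Mmp7 reaches 41.9 CPM or more only in full and BEC, Timp2 and Timp3 are lowest in early and highest in BEC, and Adamts1 and Mmp14 are highest in full.

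Timp2 and Timp3 rose at both steps from early to full. Timp2, which both blocks metalloproteases and helps MMP14 to activate MMP2, had 3.32, 8.73 and 5.91 CPM in early replicates 1 to 3. It had 64.1, 34.2 and 22.8 CPM in intermediate, 342, 315 and 267 in full, and 478, 426 and 424 in BEC. The 4 groups did not overlap at any step. Timp2 rose 6.78-fold from early to intermediate (log2 fold change 2.76, SE 0.36, edgeR adjusted p 1.95e-05). A second rise of 7.65-fold followed from intermediate to full (2.94, SE 0.32, edgeR adjusted p 7.98e-06). BEC exceeded full by 0.52 (SE 0.30), which was not called (edgeR adjusted p 0.264). That comparison was called when the 6 BEC and full libraries were fitted alone (0.51, edgeR adjusted p 0.00446) and by edgeR without a filter (0.49, adjusted p 0.0242).

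Timp3, the inhibitor that binds to the extracellular matrix and also blocks ADAM proteases, also rose at both steps and had lower mean CPM than Timp2 in intermediate, full and BEC, though not in early. Its early replicates had 2.93, 10.5 and 8.98 CPM, and its intermediate replicates 44.2, 26.8 and 24.5. Full replicates had 89.6, 85.5 and 84.0 CPM and BEC replicates 142, 143 and 155. Again no neighbouring groups overlapped. The first step was 4.30-fold (2.10, SE 0.31, edgeR adjusted p 6.98e-05) and the second 2.72-fold (1.44, SE 0.27, edgeR adjusted p 0.000818). Between BEC and full the difference was 0.76 (SE 0.26, edgeR adjusted p 0.0551). The fit with the replicate number as a block called it (0.77, edgeR adjusted p 0.0349). So did DESeq2 (0.78, adjusted p 0.0464), edgeR without a filter (0.73, adjusted p 0.000107) and the 6 BEC and full libraries alone (0.75, edgeR adjusted p 4.51e-05). Median-of-ratios factors and total counts did not call it.

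Timp1, an inhibitor that stellate cells make in abundance when the liver is injured, stayed low. Early replicates had 6.41, 3.73 and 4.78 CPM, intermediate 10.4, 7.67 and 6.74, full 15.5, 9.05 and 8.88, and BEC 6.17, 9.92 and 7.22. Intermediate lay above early in every library. The rise of 0.73 (SE 0.29, edgeR adjusted p 0.0491) was at the threshold. It was lost with median-of-ratios factors (0.67, edgeR adjusted p 0.067) and when any 1 of 6 libraries was left out: early replicates 2 and 3, intermediate replicates 1 and 2, full replicate 2 and BEC replicate 3 (edgeR adjusted p 0.0512 to 0.175). Full exceeded early by 1.16 (SE 0.29, edgeR adjusted p 0.00247). Full against intermediate (0.43, edgeR adjusted p 0.227) and BEC against full (-0.52, edgeR adjusted p 0.215) were not called.

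Mmp14, the membrane-type protease that cuts collagen at the cell surface, was already present in early, at 215, 211 and 148 CPM. Intermediate replicates had 399, 358 and 321 CPM, full replicates 446, 429.7 and 399, and BEC replicates 316, 334 and 301. Early was the lowest group in every library, and BEC lay below full in every library. The first step raised Mmp14 1.88-fold (0.91, SE 0.14, edgeR adjusted p 6.45e-05). Full against intermediate overlapped by 1 library and missed the threshold (0.24, SE 0.13, edgeR adjusted p 0.171); the replicate block put it just inside (0.25, edgeR adjusted p 0.04998), and total counts also called it (0.44, edgeR adjusted p 0.0142). BEC was lower than full by a log2 fold change of -0.42 (SE 0.13, edgeR adjusted p 0.0371). It no longer passed when any 1 of 7 libraries was left out, namely intermediate replicate 2 or any full or BEC library (edgeR adjusted p 0.0554 to 0.113).

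Adamts1, a secreted protease of the proteoglycans versican and aggrecan, peaked in full. Early replicates had 25.5, 39.6 and 43.1 CPM, intermediate 133, 123 and 136, full 213, 178 and 185, and BEC 102, 108 and 121. No 2 groups overlapped. It rose 3.63-fold at the first step (1.86, SE 0.16, edgeR adjusted p 3.54e-07) and 1.47-fold at the second (0.56, SE 0.15, edgeR adjusted p 0.00873), and was 1.74-fold lower in BEC than in full (-0.80, SE 0.15, edgeR adjusted p 0.00141). BEC against intermediate was -0.25 (SE 0.15) and was not called (edgeR adjusted p 0.188). Adamts1 is also an immediate early gene in many cells. A list of 9 genes of dissociation stress (Fos, Jun, Egr1 and others) summed to between 2555 and 4581 CPM in early, 3384 and 6678 in intermediate, 4132 and 6662 in full, and 3309 and 6008 in BEC. In each group replicate 1 had the lowest of these sums and replicate 3 the highest; Adamts1 had that order in early and BEC and not in intermediate or full. The part of stress in its level was not tested.

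Mmp15, the second membrane-type metalloprotease, went the other way. Early replicates had 387, 494 and 563 CPM, intermediate 352, 476 and 495, full 306, 385 and 383, and BEC 201, 287 and 271. The early and intermediate ranges overlapped, as did intermediate and full, and BEC lay below all other libraries. The main test, which has no replicate term, called no single step. Intermediate against early gave -0.13 (edgeR adjusted p 0.568), full against intermediate -0.30 (edgeR adjusted p 0.194) and BEC against full -0.50 (SE 0.18, edgeR adjusted p 0.0604). With the replicate block, full against intermediate (-0.29, edgeR adjusted p 0.00861) and BEC against full (-0.51, edgeR adjusted p 0.000287) were called. BEC against full was also called by DESeq2 (-0.49, adjusted p 0.0394) and by edgeR without a filter (-0.53, adjusted p 0.00171). The 6 libraries alone (-0.52, edgeR adjusted p 0.0222) and totals without the 50 most abundant genes (-0.52, edgeR adjusted p 0.0451) called it too. Median-of-ratios factors and total counts did not. Over the whole range BEC was 1.90-fold below early on the TMM scale (-0.93, SE 0.18, edgeR adjusted p 0.000311), and BEC was 1.74-fold below intermediate (-0.80, SE 0.18, edgeR adjusted p 0.0017). When libraries were scaled by total counts, BEC against early was -0.06 (edgeR adjusted p 0.756), and intermediate stood above early (0.53, edgeR adjusted p 0.0167). The median of all genes then moved to 0.72 at that step. A change of scaling moves all genes by nearly the same amount, so Mmp15 lies below the median either way. That does not settle which scaling is right.

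Adam9, a sheddase of growth factor precursors, had the smallest range of the 10 members, at most 0.48 on the log2 scale between any 2 groups. Early replicates had 139.8, 129.8 and 147 CPM, intermediate 108, 93.6 and 106, full 112, 91.4 and 94.9, and BEC 115, 114 and 105. Early lay above the 3 other groups, which overlapped with each other. On the TMM scale it fell 1.35-fold at the first step (-0.44, SE 0.10, edgeR adjusted p 0.0017). With total counts it was higher in intermediate (0.23, edgeR adjusted p 0.0476), where the median of all genes was 0.72. Leaving the 50 most abundant genes of any library out of the totals put it near 0 (-0.0314, edgeR adjusted p 0.792). Neither later step was called (-0.05 and 0.16, edgeR adjusted p 0.730 and 0.284).

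Adam10 rose at the first step. Early replicates had 82.0, 68.8 and 79.9 CPM, intermediate 156, 133 and 142, full 175, 151 and 153, and BEC 183, 164 and 149. Early was separate, and the other 3 groups overlapped. The first step was 1.87-fold (0.90, SE 0.11, edgeR adjusted p 1.01e-05). The next steps were 0.15 (edgeR adjusted p 0.273) and 0.05 (edgeR adjusted p 0.820). With total counts the second step was called (0.36, edgeR adjusted p 0.0150), where the median of all genes was 0.21. BEC against intermediate, at 0.20 in the main test (edgeR adjusted p 0.128), was called with total counts (0.41, edgeR adjusted p 0.00525) and with totals that left out the 50 most abundant genes (0.27, edgeR adjusted p 0.0396). Adam10 depends on tetraspanin partners to leave the endoplasmic reticulum. Among them, Tspan14 averaged 39.8, 94.7, 166 and 188 CPM in early, intermediate, full and BEC and rose at the first step (1.25, SE 0.11, edgeR adjusted p 7.28e-07) and the second (0.81, SE 0.11, edgeR adjusted p 5.82e-05).

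Mmp2, the gelatinase that stellate cells and fibroblasts secrete, was scarce. Early replicates had 2.77, 8.91 and 7.77 CPM, intermediate 1.32, 1.70 and 5.38, full 2.13, 0.580 and 1.18, and BEC 3.76, 2.28 and 2.88. No step was called in the main test, although BEC lay above full in every library (1.19, SE 0.58, edgeR adjusted p 0.186). Intermediate against early gave -1.20 (SE 0.55, edgeR adjusted p 0.0833). That first step was called by DESeq2 (-1.26, adjusted p 0.0454), by edgeR without a filter on low counts (-1.15, adjusted p 0.0067), without early replicate 1 (-1.56, edgeR adjusted p 0.0256) and without intermediate replicate 3 (-2.09, edgeR adjusted p 0.00717). The unfiltered fit also called the second step (-1.10, edgeR adjusted p 0.0231) and BEC against full (1.15, edgeR adjusted p 0.0221). Full was below early (-2.31, SE 0.58, edgeR adjusted p 0.00279), and full and early did not overlap. Fibrillar collagen messages are given beside it. Col1a1, Col1a2 and Col3a1 summed to 55.2, 169 and 186 CPM in early replicates 1 to 3, 24.0, 51.4 and 106 in intermediate, 36.2, 23.2 and 46.2 in full, and 48.4, 48.5 and 83.5 in BEC. In early, intermediate and full, the library with the least Mmp2 also had the least of these collagens. In BEC, the library with the most Mmp2 had the least. All 3 collagens were lower in full than in early, like Mmp2 (log2 fold change -1.29, -2.31 and -2.40, edgeR adjusted p 0.0170, 0.000896 and 0.00210), and at the first step only Col1a2 was called (-1.27, edgeR adjusted p 0.0377). Of the 12 stellate cell and fibroblast markers, 12 were above 3 counts in some library of each group and none was at 0 throughout a group. Their sum was 147 to 383 CPM in early, 1841 to 2532 in intermediate, 2994 to 3463 in full and 1701 to 2273 in BEC. Rgs5 made up most of it outside early. Without Rgs5, a step chosen after the values were seen, the other 11 summed to 114 to 333 CPM in early, 68.1 to 197 in intermediate, 49.99 to 87.1 in full and 65.4 to 111 in BEC. Within those 11, early means ran from 0.583 CPM for Acta2 to 71.4 for Reln, with 61.1 for Col3a1 and 40.9 for Col1a1. The part of mesenchymal RNA in the Mmp2, Timp1, Timp2 and Timp3 levels was not tested.

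Markers of other cell types were examined in the same libraries. Neutrophil, T and NK cell, and B cell lists summed to at most 0.395, 0.233 and 0.289 CPM in any library. Endothelial markers summed to 13.8 to 20.6 CPM in early, 5.91 to 14.0 in intermediate, 1.91 to 4.29 in full and 1.45 to 6.26 in BEC, lower in full than in early as Mmp2 was. The macrophage list summed to 62.5 to 173 CPM in early, 93.3 to 139 in intermediate, 188 to 228 in full and 488 to 523 in BEC. Csf1r averaged 3.94, 24.6, 67.8 and 127 CPM in the same order, lowest in early and highest in BEC like the means of Timp2 and Timp3, and Cd14 averaged 77.8, 77.8, 127 and 361 CPM. The other 6 genes of that list summed to 19.0 to 19.4 CPM in early, 4.46 to 10.6 in intermediate, 4.21 to 12.7 in full and 4.62 to 24.2 in BEC. Of the mesothelial list, Msln averaged 1.61, 0.880, 21.4 and 198 CPM, high in full and BEC like Mmp7, while Upk3b, Wt1 and Lrrn4 were at most 1.93 CPM in any group. The part of these cell types in the members' levels was not tested.

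**Figure D2:**
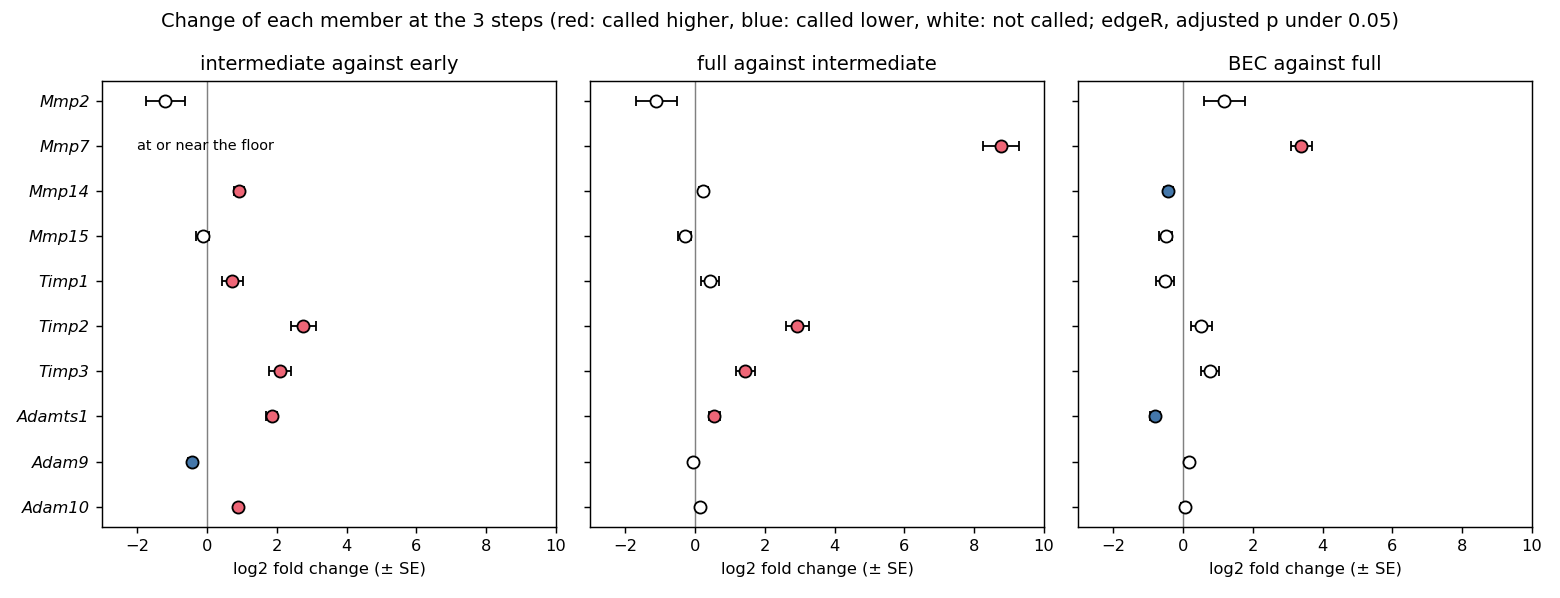
Log2 fold change (horizontal axis, ± SE from edgeR's quasi-likelihood fit of 12 libraries) of each member at the 3 steps; red marks an edgeR adjusted p under 0.05 and a higher level in the first-named group, blue a lower level, white no call. Of the 10 members 7 are called at the first step, 4 at the second and 3 at the third, and Mmp7 is left out of the first panel because its early counts are 0.

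An F test over the 4 groups called all 10 members, beside 75.6% of all genes tested. At the first step 6 of the 10 members were called higher (Mmp14, Timp1, Timp2, Timp3, Adamts1, Adam10), beside 28.7% of all genes, and 1 lower on the TMM scale (Adam9, higher with total counts), beside 25.7%; in either direction 54.4% of all genes tested were called. With total counts, 8 members were higher and 0 lower at this step, beside 59.4% and 10% of all genes. The members' median log2 fold change was 0.91, beside 0.06 for all genes. From intermediate to full, 4 members rose (Mmp7, Timp2, Timp3, Adamts1), beside 20.8% of all genes, and 0 fell, beside 19.8%; in either direction 40.7% were called. The medians were 0.34 for the members and 0.01 for all genes. With the replicate block 6 members were called at this step, Mmp14 added as higher and Mmp15 as lower, and 22.9% and 22.1% of all genes were called higher and lower. With total counts 6 rose and 0 fell, with Mmp14 and Adam10 added, beside 32.3% and 12.2%. Between BEC and full, Mmp7 was higher and Mmp14 and Adamts1 were lower, 3 of 10 beside 21.3% of all genes (10.7% higher, 10.6% lower), with medians of 0.11 and 0.00. That last count was 5 with the replicate block, which added Mmp15 and Timp3 and called 12.6% of all genes in each direction. Full against early called all 10 members, beside 71.2% of all genes: 7 were higher, beside 39.1%, and 3 lower (Mmp2, Mmp15, Adam9), beside 32.1%. With total counts Mmp15 (0.44, edgeR adjusted p 0.0368) and Adam9 (0.38, edgeR adjusted p 0.00225) were higher in full instead, which makes 9 higher and 1 lower, beside 66.4% and 14.8%. The call for Mmp15 (-0.43, edgeR adjusted p 0.0423) also depended on single libraries: it was lost in 7 of 12 fits that left 1 out, namely early replicates 2 and 3, intermediate replicate 2, any full replicate and BEC replicate 3 (edgeR adjusted p 0.0505 to 0.178). BEC against early called 8 members, beside 73.1%: 6 were higher, beside 40%, and 2 lower (Mmp15, and Adam9, which was higher with total counts), beside 33%. With total counts 8 were higher and 0 lower, beside 65.8% and 16.2%. BEC against intermediate called 4, beside 52.4%: Mmp7, Timp2 and Timp3 were higher, beside 26.3%, and Mmp15 lower, beside 26.2%. With total counts 5 were higher and 1 lower, beside 36% and 18.1%, with Adam9 (0.32, edgeR adjusted p 0.0116) and Adam10 added. Comparisons that name the same group share its libraries.

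**Figure D3:**
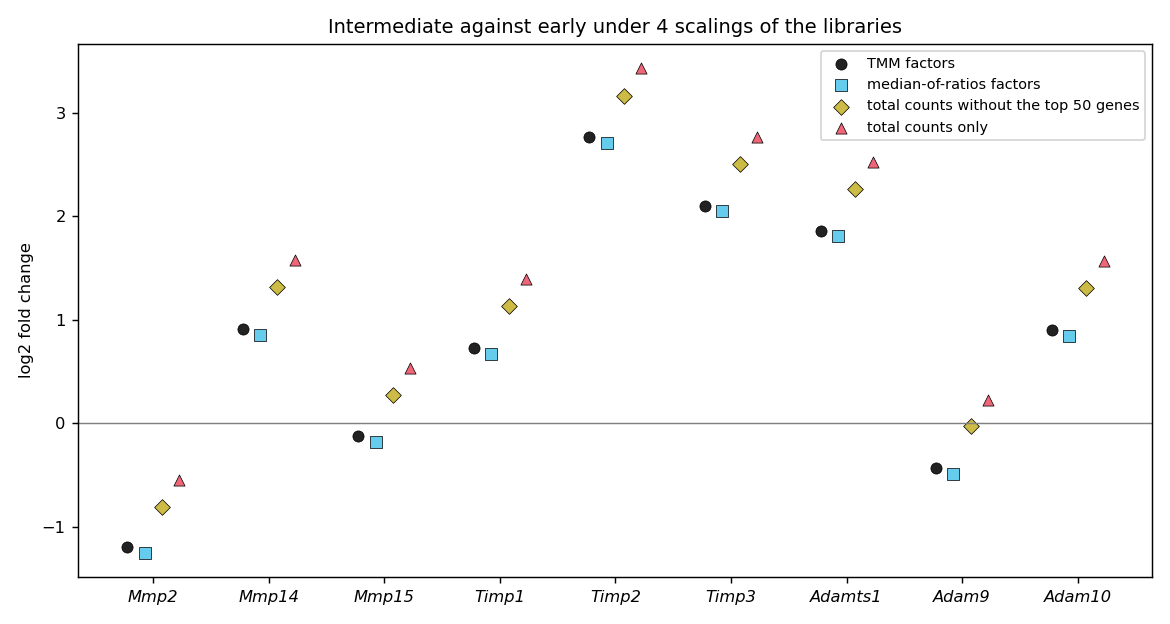
Log2 fold change of 9 members from early to intermediate (vertical axis) under TMM factors, median-of-ratios factors, total counts without the 50 most abundant genes of any library, and total counts. Timp2, Timp3, Adamts1, Mmp14 and Adam10 stay above 0 under all 4, whereas Mmp15 and Adam9 are below 0 with TMM (-0.13 and -0.44) and above it with total counts (0.53 and 0.23).

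Levels of different genes were compared per kilobase of merged exons in GENCODE M21 (GRCm38). Among the 7 proteases of the 10 members, Mmp15 had the highest mean on this scale in early and intermediate and Mmp7 in BEC. In early Mmp15 stood at 89.2 ± 16.4 CPM per kb, followed by Adam9 at 33.7 ± 2.10 and Mmp14 at 32.1 ± 6.34, which overlap within their spread. Intermediate had 81.7 ± 14.4 for Mmp15 and 60.3 ± 6.58 CPM per kb for Mmp14, and in replicate 1 Mmp14 was the higher of the pair. In full, Mmp14 (71.3 ± 4.01), Mmp15 (66.3 ± 8.35) and Mmp7 (58.2 ± 24.2 CPM per kb) were alike within the spread. In BEC, Mmp7 reached 611 ± 98.9 CPM per kb, with Mmp14 at 53.2 ± 2.73 and Mmp15 at 46.9 ± 8.55 (SD, n = 3 each). Among inhibitors, Timp1 was highest in early at 5.60 ± 1.52 CPM per kb, against 1.54 ± 0.694 for Timp2 and 0.916 ± 0.490 for Timp3. In intermediate, Timp1 at 9.33 ± 2.17 and Timp2 at 10.4 ± 5.47 CPM per kb were alike within the spread. In full and BEC the highest was Timp2, at 79.1 ± 9.82 and 114 ± 7.85 CPM per kb. Timp3 stood at 10.6 ± 0.358 and 18.02 ± 0.883 there, and Timp1 at 12.5 ± 4.24 and 8.75 ± 2.18. These are message levels and say nothing of enzyme activity.

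**Figure D4:**
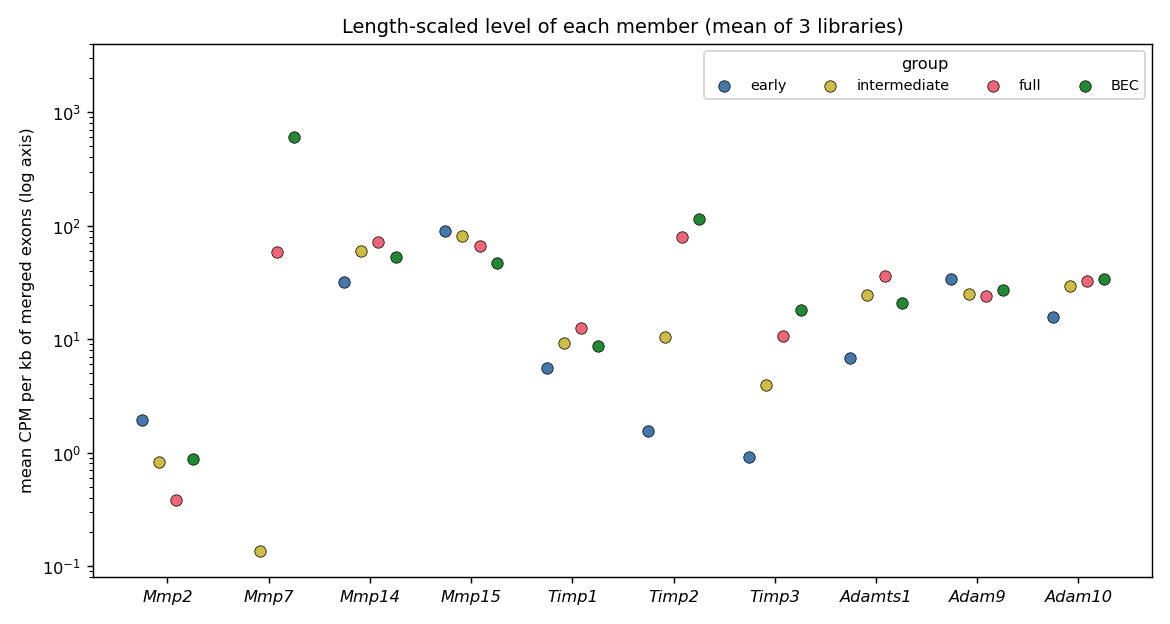
Mean level of each member per group in CPM per kb of merged exons (log axis, mean of 3 libraries); Mmp7 in early is at 0 and not drawn. Mmp15 is the highest point of the early group at 89.2 CPM per kb, Mmp7 the highest of BEC at 611, and Timp2 passes Timp1 between early and full.

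Overlapping genes could affect a few members. In GENCODE M21, the antisense gene AV064505 shares 11.5% of the exon bases of Mmp7, and Syn3 on the opposite strand shares 21.3% of those of Timp3. Whether counting used strand is not given in the sources used here. AV064505 averaged at most 0.579 CPM and Syn3 at most 7.76 CPM in any group. These levels do not show whether reads in the shared bases were lost from Mmp7 and Timp3. Cep295nl lies in an intron of Timp2 on the same strand, shares no exon base and averaged at most 1.12 CPM.

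Genes with the most similar pattern were found by Pearson's r of log2 CPM over the 12 libraries, among 10923 genes with at least 10 CPM in some group. Nearest to Mmp7 were Lrrn1 (r = 0.999), Gabrp (0.997) and Nos2 (0.996). Gabrp averaged 0 CPM in early, 0.214 in intermediate, 59.5 in full and 561 in BEC. Closest to Timp2 were Ltbp2, Cacna2d1 and Fam171a1 (r = 0.997, 0.997 and 0.996). Pde4dip, Tsc22d2 and B430119L08Rik came nearest to Mmp15 (r = 0.969, 0.969 and 0.963). Among the members, Timp2 and Timp3 were most alike (r = 0.983), followed by Mmp7 and Timp2 (0.931) and by Mmp14 and Adamts1 (0.896). The libraries share groups and scaling, so r describes the pattern and carries no test.

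The rest of the system was described from 6 lists of 69 genes, of which 47 were tested. Of 19 other metalloproteases, 5 were tested. Mmp11, or stromelysin-3, averaged 1.04 CPM in early and 26.04 in intermediate, a rise of 4.62 on the log2 scale (SE 0.22, edgeR adjusted p 2.45e-09), reached 43.2 CPM in full and was lower in BEC at 21.5 (-1.01, SE 0.15, edgeR adjusted p 0.000256). Mmp19 averaged 93.8, 36.5, 13.8 and 4.71 CPM in early, intermediate, full and BEC, each lower than the group before (edgeR adjusted p 2.94e-05, 5.60e-05 and 0.000109). Mmp24, a membrane-type protease, was highest in intermediate, with 2.35, 17.6, 11.3 and 3.87 CPM, and Mmp23 was highest in full at 16.03 CPM. The classical collagenases and gelatinase of inflammation, Mmp8, Mmp9 and Mmp13, averaged at most 0.742, 0.118 and 0.0608 CPM in any group. Of the 5, 4 rose and 1 fell at the first step (28.7% and 25.7% of all genes), 3 rose and 2 fell at the second (20.8% and 19.8%), and 3 were lower in BEC than in full (10.6%). With total counts 4 rose and 1 fell at the first step, beside 59.4% and 10%.

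Furin, Pcsk5 and Pcsk6, convertases that process precursor proteins, fell at the first step. Furin, which cuts the precursor of MMP14, averaged 539 CPM in early, 280 in intermediate and 225 in both full and BEC. Pcsk6 went from 176 to 66.1, 13.3 and 7.11 CPM, and Pcsk5 from 48.9 to 17.03, 5.32 and 2.88. Of the 7 genes in this list of other inhibitors and partners, 5 fell and 1 (Reck, a membrane inhibitor, from 1.17 to 4.78 CPM) rose at the first step, beside 25.7% and 28.7% of all genes. With total counts 3 fell and 2 rose at that step, beside 10% and 59.4%, and Pcsk7 turned from -0.39 to 0.27.

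Several ADAM and ADAMTS genes rose at the first 2 steps, as Timp2 did. Adam33 averaged 0.0876 CPM in early, 4.03 in intermediate, 46.0 in full and 43.8 in BEC. Adam15 had 1.88, 20.7, 33.0 and 36.2 CPM. Adam8 had 0.649, 1.73, 9.95 and 61.0 CPM and was higher in BEC than in full (2.61, SE 0.23, edgeR adjusted p 3.38e-06). Of 7 other ADAM genes tested, 3 rose and 0 fell at the first step (28.7% and 25.7% of all genes), 5 rose at the second (20.8%) and 3 were higher in BEC than in full (10.7%). Adamts9, a protease of versican like Adamts1, went from 0.838 to 32.8, 209 and 238 CPM. Adamts14, which trims procollagen, was highest in the middle groups, with 3.46, 39.96, 31.3 and 4.13 CPM, and was lower in BEC than in full (-2.92, SE 0.16, edgeR adjusted p 5.98e-08). Adamts16 had 0, 0.0913, 6.28 and 28.1 CPM. Of 13 other ADAMTS genes tested, 5 rose at the first step, beside 28.7% of all genes, and 8 at the second, beside 20.8%. In BEC against full, 3 were higher and 3 lower, beside 10.7% and 10.6%. Of the 7 partners of ADAM10 and ADAM17 that were tested, 5 rose at the first step and 2 at each of the others, beside the same shares of all genes, and 0 fell. With total counts, 6 of the 7 ADAM genes, 7 of the 13 ADAMTS genes and 6 of the 7 partners rose at the first step, where 59.4% of all genes did. The tested sheddase Adam17 turned from -0.08 (not called) to 0.58 there. At the second step 5 ADAM genes, 9 ADAMTS genes and 4 partners rose with total counts, beside 32.3% of all genes.

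The plasminogen system, which feeds metalloprotease activation, moved in both directions. Plasminogen itself, Plg, a hepatocyte product, averaged 2320 CPM in early, 566 in intermediate, 47.3 in full and 26.6 in BEC, and the plasmin inhibitor Serpinf2 went from 1604 to 540, 52.8 and 15.2. The activator Plat rose from 3.09 to 35.2 and 76.7 CPM, with 70.2 in BEC, and the urokinase receptor Plaur from 5.35 to 29.1 and 50.5, with 62.8 in BEC. Urokinase, Plau, was at the floor in early, and averaged 9.08 CPM in full and 39.96 in BEC, which is at least 33.3-fold and at least 146-fold above that floor. It was higher in BEC than in full (2.14, SE 0.25, edgeR adjusted p 3.07e-05). Of the 8 genes, 4 rose and 2 fell at the first step (28.7% and 25.7% of all genes), 5 rose and 3 fell at the second (20.8% and 19.8%), and 1 was higher and 2 lower in BEC than in full (10.7% and 10.6%). With total counts 5 rose and 2 fell at the first step, beside 59.4% and 10%.

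**Figure D5:**
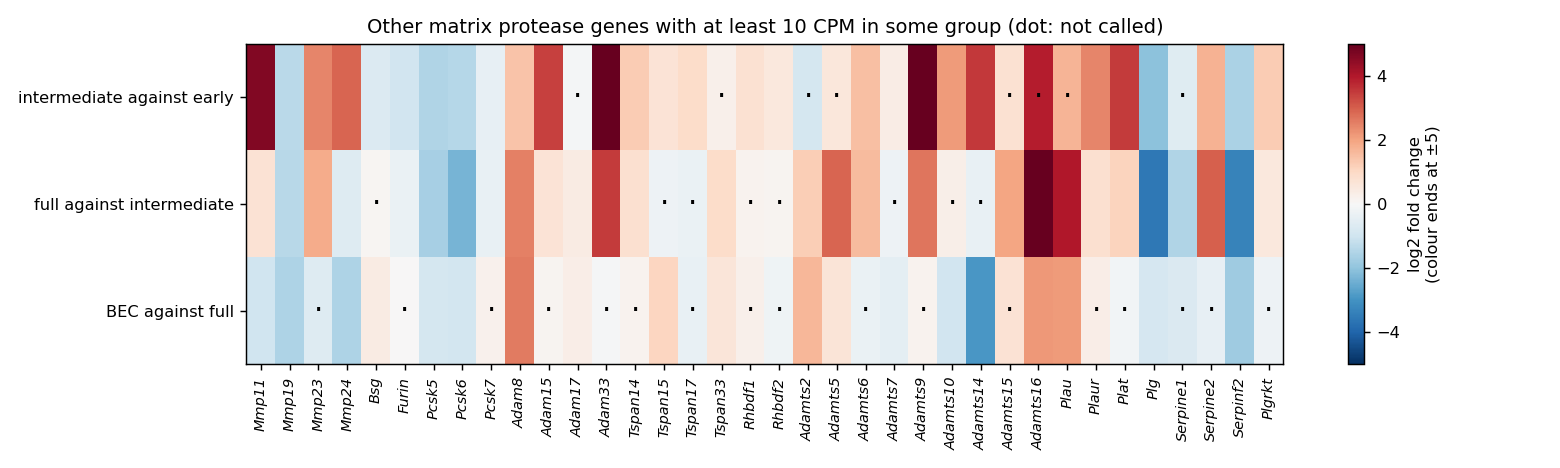
Log2 fold change at the 3 steps (rows; colour scale ends at -5 and 5) of the 36 other matrix protease genes with at least 10 CPM in some group (columns, in list order); a dot marks a gene that edgeR did not call at an adjusted p under 0.05. Adamts14 and Mmp24 rise at the first step and are lower in BEC than in full, while Adam8, Adamts16 and Plau are higher in BEC than in full.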

How the data were processed

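The authors deposited raw counts per gene symbol, 1 column per library; STAR 2.7.10b, featureCounts 2.0.1, DESeq2 and GRCm39 are named in the submitters' processing notes, while the annotation, strandedness and treatment of multiply mapped reads are not given in the sources used here. The second deposited table, of signal, was those counts after division by a single size factor for each library, and was used only to check the columns. Of all columns and rows, 0 lacked a sample or a gene name. Genes were kept with filterByExpr, scaled by TMM factors and fitted with a term per group over 12 libraries by edgeR's quasi-likelihood test (edgeR 4.0.16, limma 3.58.1, R 4.3.3), with Benjamini-Hochberg adjustment over 16210 genes and calls at an adjusted p under 0.05. SE is the absolute log2 fold change divided by the root of F. The common biological coefficient of variation was 14.8%. Log2 CPM used a prior count of 2; the floor was 3 counts per library and covers counting error only. DESeq2 1.42.0, other scalings, filters, a replicate block, fits of 6 libraries and fits without 1 library were alternatives; the scaling without the 50 most abundant genes was chosen after seeing the data. The procedure was tested on simulated data in which a small share of genes changed in the intermediate group, equally up and down. That setting does not cover the differences in scaling between these libraries. Figures used Python 3.11.15 and matplotlib 3.10.9.

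Members and lists were chosen with earlier results of these data known. Named genes are all members, listed pathway genes with at least 10 CPM in some group, the 3 genes most like each of Mmp7, Timp2 and Mmp15, and identity markers. Listed genes named below 10 CPM, the overlapping genes and the promoter motifs were chosen after values were seen. The check of pairing took each library's deviation from its group mean: across genes, libraries with equal numbers gave r of 0.121 to 0.293 for intermediate and early, 0.137 to 0.322 for full and intermediate, and 0.170 to 0.257 for BEC and full, so the numbers, which come from the titles, were taken as pairing the libraries there. In the other 3 comparisons at least 1 r was under 0.1. Replicates differed beyond counting error (chi-square per degree of freedom 5.38 to 59.0).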

Additional observations from a re-analysis of the deposited data

How the results depend on the processing

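With total counts, the log2 fold change turned for Mmp15 (0.53 intermediate against early, 0.44 full against early), Adam9 (0.23 intermediate against early, 0.15 full against intermediate, 0.38 full against early, 0.55 BEC against early), Mmp14 (0.0208 BEC against intermediate) and Timp1 (0.11 BEC against intermediate). The median of all genes moved to 0.72, 0.21, 1.005 and 1.004 for intermediate against early, full against intermediate, full against early and BEC against early, and the share of calls that were higher from 52.8% to 85.6% in the first. With total counts without the 50 most abundant genes, Mmp15 was 0.27 for intermediate against early and 0.0638 for full against early, and Adam9 was 0.0406, 0.00914 and 0.16 for full against intermediate, full against early and BEC against early. Beyond the shift of the median, the cause was not tested.

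The members called between BEC and full numbered 5 with DESeq2 (12.1% of all genes higher, 11.5% lower) and 7 without a filter (5.56% and 6.39%). They numbered 6 with the 6 libraries alone (13.3% and 13%) and 5 with the replicate block (12.6% each), against 3 in the main test (10.7% and 10.6%). Mmp15 and Timp3 were added in each of these alternatives. Timp2 was added without a filter and with the 6 libraries, and Mmp2 without a filter. Leaving out 1 library gave 2 to 5, and 5 without early replicate 1 or intermediate replicate 1. Leaving out 1 library also brought some uncalled members inside the threshold: Timp3 in BEC against full without early replicates 1 or 2 or intermediate replicates 1 or 3; Mmp15 there without early, intermediate or full replicate 1; Timp1 in BEC against early without early, full or BEC replicate 1; Mmp2 there without early replicate 1 or intermediate replicate 3; and Adamts1 in BEC against intermediate without early replicate 1. Timp1 in BEC against early was also called with DESeq2, without a filter, with total counts and with totals without the top genes (adjusted p 0.0480, 0.0164, 0.000274 and 0.00293), Mmp2 there without a filter and with 6 libraries (0.00637 and 0.0302), and Adamts1 in BEC against intermediate with 6 libraries (0.0334). The replicate block also called Mmp14 and Mmp15 in full against intermediate, Timp1 in BEC against early (0.68, edgeR adjusted p 0.0304) and Adam10 in BEC against intermediate (0.20, edgeR adjusted p 0.0408), and changed no other call of a member. Leaving out 1 library turned the sign of 5 uncalled values: Mmp15 in intermediate against early (-0.26 to 0.0171), Adam9 in full against intermediate (-0.14 to 0.00919), Adam10 in BEC against full (-0.0336 to 0.12), and Mmp2 (-0.25 to 0.96) and Timp1 (-0.31 to 0.11) in BEC against intermediate. The counts of all genes called stayed within 1.5 times under each alternative run. Mmp2 and Timp1 rest on 13 to 98 and 41 to 364 counts per library, which limits their precision.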

Other observations

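Replicate number went with level in several members. Mmp15 was lowest in replicate 1 in 4 of 4 groups, and Adam10 was highest in replicate 1 in 4 of 4. Mmp7, Mmp14, Timp1, Timp2 and Adam9 were highest in replicate 1 in 3 groups each. In full, replicate 1 was the highest library for 9 of the 10 members and the lowest for the other, Mmp15; in early it was the highest for 3. The library names in the labels run consecutively through the 4 groups of replicate 1, then of replicate 2, then of replicate 3. Beyond that, what the replicate numbers mark is not given in the sources used here.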
